A study of Mus musculus with 6 samples.

Results

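Ebf1, Ebf2, Ebf3, Ebf4, Lhx2, Emx2, Dlx5, Sox11 and Ldb1 are transcription factors, or in the case of Ldb1 a partner of such factors, that mark and shape the identity of olfactory sensory neurons. Members were taken as all probe sets whose platform annotation gave exactly 1 gene symbol, that symbol being one of these names. This gave 22 probe sets for 9 genes, out of 34945 single-symbol probe sets for 18193 genes. Each array carried RNA of olfactory epithelium, the sensory lining of the nose, from a mouse pup aged 1 day. There were 3 arrays labelled mutant and 3 labelled wildtype, all from pups of a mixed C57Black6/J and 129SvJ background. The series title names targets of KLF7, a zinc finger transcription factor of neurons, as its question. The labels do not name the allele or the promoter driving any transgene, and they list no treatment. Each RNA was amplified and biotin-labelled as cDNA, 1 pup to an array.

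EBF proteins are helix-loop-helix factors that bind DNA as dimers. They were found both as regulators of early B lymphocytes and, under the name Olf-1, as proteins binding the promoters of olfactory signalling genes. LHX2 is a LIM homeodomain factor needed for olfactory neurons to mature. It binds enhancers of odorant receptor genes together with EBF proteins, and LDB1 holds such LIM-factor complexes together across long genomic distances. EMX2 and DLX5 are homeodomain factors, the first needed for normal odorant receptor expression and the second for olfactory axons to reach the bulb, and SOX11 is a SoxC factor of immature neurons.

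The arrays differed in ways that the genotype labels did not carry. Total deposited intensity ran from 11056397 to 14439788 on mutant arrays and from 10064207 to 13320971 on wild-type arrays. On the first principal component mutant array 3 and wild-type array 3 lay at 72.3 and 129.4, and the other 4 arrays between -55.3 and -44.8. All 12 mature neuron markers with a single-symbol probe set exceeded the level below which probe sets were left out as dim, 5.19 on the log2 scale. Among them Omp, the olfactory marker protein, averaged 7.68 ± 0.34 in mutant and 8.04 ± 0.71 in wild type (SD, n = 3 each). All levels below are log2 intensities after quantile normalization, with a floor at 3.65. Brightness was used to choose a probe set per gene and to leave out dim ones. It is not read as a difference in RNA amount between genes.

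The gene in the series title separated the groups. All 4 Klf7 probe sets had lower levels on each mutant array than on any wild-type array. Probe set 1419354_at was at 6.85, 5.70 and 5.26 on mutant arrays 1, 2 and 3 and at 9.36, 8.58 and 9.04 on wild-type arrays 1, 2 and 3. The difference, mutant minus wild type, was -3.06 (SE 0.54), the largest of the 4. The brightest Klf7 probe set, 1449439_at, differed by -2.15 (SE 0.52). Probe sets 1419356_at and 1419355_at differed by -2.28 (SE 0.76) and -2.23 (SE 0.78). Even so, after adjustment over all 20967 probe sets tested, none of the 4 passed the threshold of 0.05 (limma, adjusted p = 1), and neither did any other probe set (0% called). At an unadjusted p under 0.05 by limma there were 105 probe sets, 0.501% of those tested, and 281 with the replicate number as a block. Evenly spread p-values would give a share of 0.05 at this cutoff, so the p-values here were large as a set. The reason was not tested.

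No identity factor passed the test between genotypes. Of the 21 member probe sets bright enough to test, 0 passed the threshold by limma and 0 had an unadjusted p under 0.05. With so few probe sets and a background of 0.501%, a count of 0 does not set them apart. Differences were lower in mutant for 10 and higher for 11, with a median of 0.05, beside -0.02 over all probe sets tested. The median size of the difference was 0.14 for members and 0.21 for all. For 0 of the 21 did the groups fail to overlap, against 2.65% of all probe sets tested, 1.71% lower and 0.935% higher in mutant. What these arrays do give is a bound on each change, as a 95% confidence interval from limma. Of the 21 intervals, 10 lay within a 2-fold change either way, as did 24% of all those tested. The median SE was 0.38 for members and 0.57 for all, and several of the 10 are probe sets of Sox11 or Ebf1. The narrower intervals therefore do not show that these genes were held more constant than others.

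**Figure D1:**
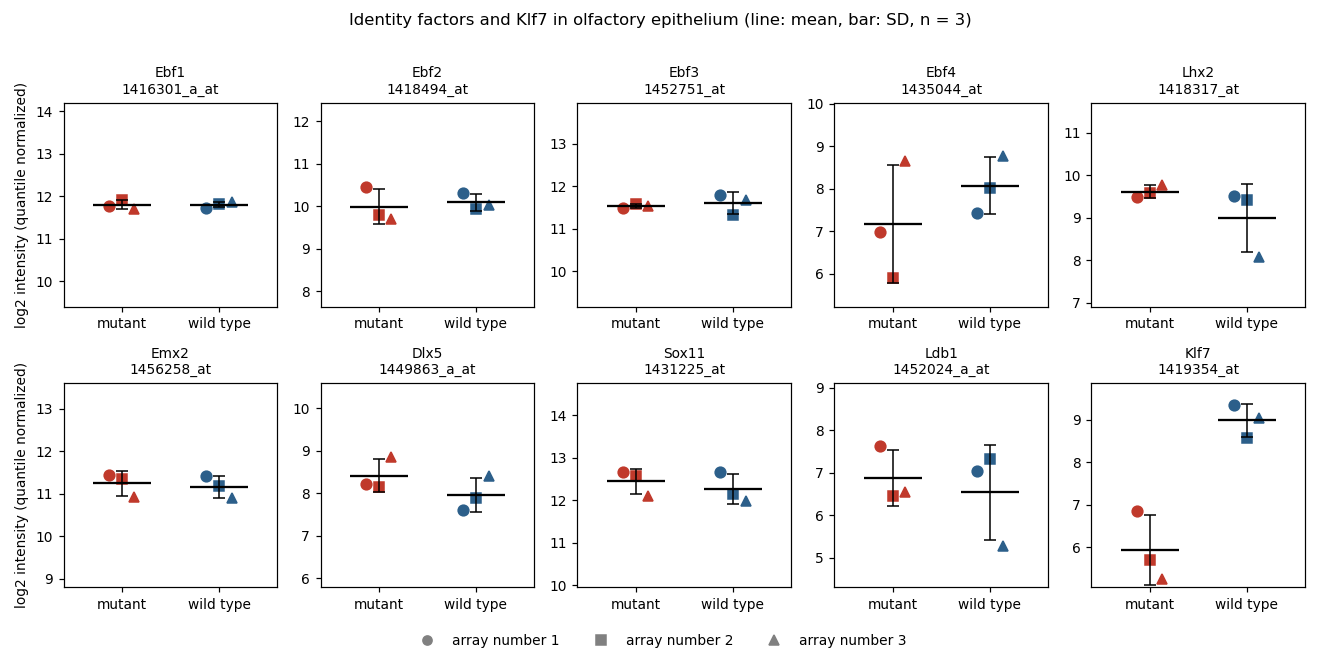
Log2 intensity (vertical axes, quantile normalized, each panel spanning the same number of log2 units) of the brightest probe set of each identity factor and of Klf7 probe set 1419354_at, with mutant arrays left (red) and wild-type arrays right (blue). Marker shape gives the array number, horizontal lines are means and bars are SD (n = 3 each). The groups overlap for all 9 factors and lie apart for Klf7, at 5.26 to 6.85 in mutant and 8.58 to 9.36 in wild type. The Klf7 probe set shown had the largest difference of the Klf7 probe sets and is not the brightest.

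Among the EBF genes, Ebf1 and Ebf3 had narrow intervals by their brightest probe sets. Ebf1, the founding member, had levels of 11.78, 11.91 and 11.70 on mutant arrays 1, 2 and 3 by probe set 1416301_a_at, against 11.73, 11.82 and 11.85 on wild-type arrays 1, 2 and 3. All 6 values lay within 0.21 of each other and the groups overlapped. The difference was -0.004 (SE 0.16), and its interval ran from -0.35 to 0.35, or from 1.28-fold lower to 1.27-fold higher in mutant. The other 3 tested Ebf1 probe sets, 1448293_at, 1416302_at and 1439789_at, differed by 0.15 (SE 0.28), 0.07 (SE 0.38) and -0.13 (SE 0.40). The last Ebf1 probe set, 1457441_at, fell below the dim level with a mean of 4.52 and was not tested. It stood at 3.99, 5.07 and 4.80 on the mutant arrays and at 4.33, 3.65 and 5.28 on the wild-type arrays, the middle of these at the floor.

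Ebf3 is an EBF gene of developing neurons. By probe set 1452751_at it was at 11.49, 11.58 and 11.52 on mutant arrays 1, 2 and 3 and at 11.80, 11.31 and 11.67 on wild-type arrays 1, 2 and 3. The mutant values fell inside the wild-type range, and the difference was -0.07 (SE 0.18, interval -0.47 to 0.34). The suffix of probe set 1428349_s_at marks probes that can match transcripts of more than a single gene. That probe set and 1460666_a_at differed by 0.07 (SE 0.50) and 0.16 (SE 0.39). On each of these, wild-type array 2 was lowest, at 7.87 and 8.01, while the other 5 arrays lay between 8.80 and 10.09 and between 8.82 and 9.26. Without wild-type array 2 the difference of 1452751_at was -0.20.

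Ebf2, which with Ebf3 is expressed beside Ebf1 in the olfactory neuron lineage, read 10.46, 9.79 and 9.71 on mutant arrays 1, 2 and 3 and 10.32, 9.93 and 10.04 on wild-type arrays 1, 2 and 3 by probe set 1418494_at. Arrays numbered 1 were the highest in each genotype. The difference was -0.11 (SE 0.28, interval -0.73 to 0.51). Its dimmer probe sets 1449101_at and 1449102_at differed by -0.32 (SE 0.64) and -0.05 (SE 0.85). For the second the interval ran from -1.91 to 1.81.

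Ebf4, the most divergent EBF gene, had the largest difference of the 21 tested member probe sets, with wide scatter and overlapping groups. Its only probe set, 1435044_at, was at 6.97, 5.90 and 8.66 on mutant arrays 1, 2 and 3, against 7.43, 8.02 and 8.76 on wild-type arrays 1, 2 and 3. Each mutant array lay below the wild-type array with its number, by 0.46, 2.12 and 0.10, but mutant array 3 exceeded the other wild-type arrays. The difference was -0.89 (SE 0.68, interval -2.38 to 0.60), with an unadjusted p of 0.21 by limma and an exact two-sided permutation p of 0.4. It was -1.65 without mutant array 3 and -0.26 without mutant array 2. For 3 arrays against 3 the smallest exact p is 0.1.

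**Figure D2:**
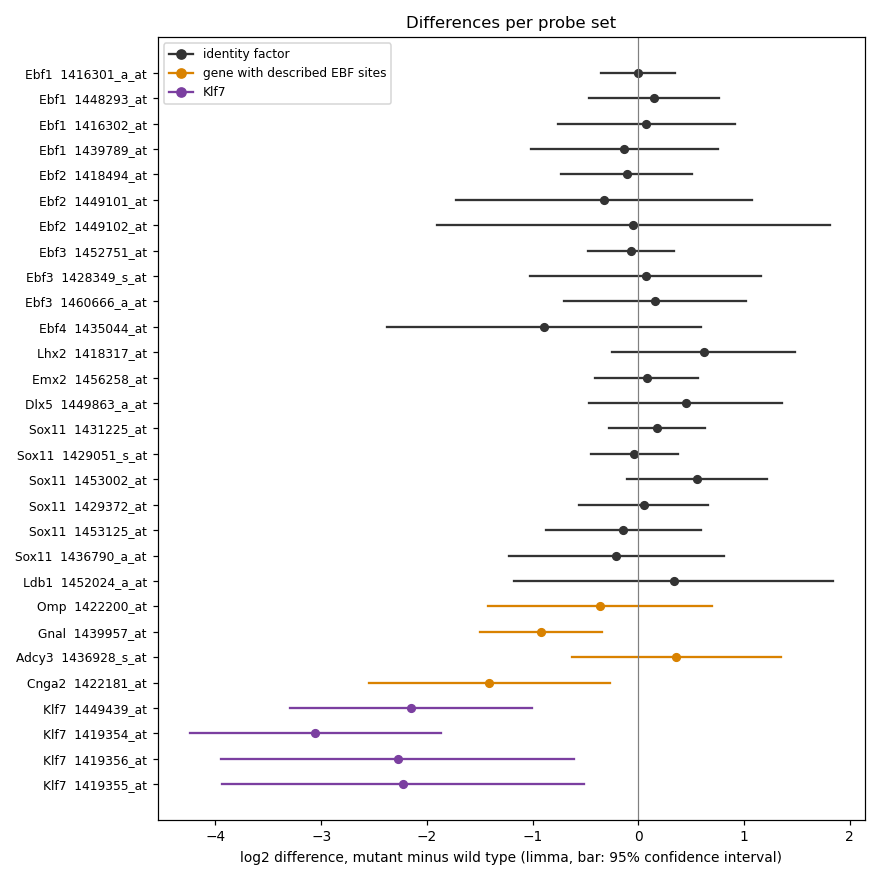
Log2 difference, mutant minus wild type (horizontal axis), for each tested probe set of the identity factors, for 4 genes with described EBF sites and for Klf7, with 95% confidence intervals from limma as bars. Every interval of an identity factor spans 0, whereas those of Gnal, Cnga2 and the 4 Klf7 probe sets lie below 0 before adjustment.

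Lhx2 and Ldb1, the LIM-homeodomain factor and its adaptor, were each carried by 1 probe set and were lowest on the same array. Lhx2 (1418317_at) was at 9.49, 9.59 and 9.78 on mutant arrays 1, 2 and 3, against 9.51, 9.42 and 8.08 on wild-type arrays 1, 2 and 3. Wild-type array 3 lay below the other 5 arrays, and the groups overlapped. The difference of 0.62 (SE 0.40, interval -0.25 to 1.48) became 0.16 without that array. Ldb1 (1452024_a_at) was at 7.62, 6.45 and 6.55 on mutant arrays 1, 2 and 3, against 7.03, 7.32 and 5.27 on wild-type arrays 1, 2 and 3. Wild-type array 3 was again lowest, and the groups overlapped. The difference of 0.33 (SE 0.69, interval -1.17 to 1.84) turned to -0.31 without wild-type array 3 and to -0.04 without mutant array 1. Markers of supporting cells and glands were also low on wild-type array 3, where their summed intensity was 12770, beside 18910 to 20190 on mutant arrays and 20170 to 20980 on the other wild-type arrays. The part of these in the Lhx2 and Ldb1 values was not tested.

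For Emx2, the difference between genotypes was small on every pair of arrays. Probe set 1456258_at read 11.45, 11.36 and 10.91 on mutant arrays 1, 2 and 3 and 11.41, 11.17 and 10.89 on wild-type arrays 1, 2 and 3. Arrays numbered 3 were lowest in each genotype, and arrays with the same number differed by 0.03, 0.18 and 0.02. The difference was 0.08 (SE 0.22), with an interval from 1.32-fold lower to 1.48-fold higher in mutant. Dlx5 (1449863_a_at) was at 8.22, 8.16 and 8.86 on mutant arrays 1, 2 and 3, against 7.61, 7.89 and 8.40 on wild-type arrays 1, 2 and 3. It was higher in the mutant array of each number, by 0.62, 0.27 and 0.46, yet wild-type array 3 exceeded both other mutant arrays. The difference was 0.45 (SE 0.42, interval -0.47 to 1.36), with an unadjusted p of 0.31 by limma. On the deposited scale and with array medians set equal, 2 of the 21 member probe sets no longer overlapped between groups, that of Dlx5 and 1453002_at of Sox11, beside 2.45% and 1.41% of all probe sets tested. Under neither setting did a member have an unadjusted p under 0.05 by limma.

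Sox11 had 6 probe sets, more than any other member, and their differences ran in both directions. The brightest, 1431225_at, was at 12.66, 12.58 and 12.11 on mutant arrays 1, 2 and 3 and at 12.68, 12.15 and 11.99 on wild-type arrays 1, 2 and 3. The difference was 0.18 (SE 0.21, interval -0.28 to 0.63). Probe set 1429051_s_at, whose suffix marks probes that can match transcripts of more than a single gene, differed by -0.04 (SE 0.19). Probe set 1453002_at, designed on the same accession as 1429051_s_at, read 11.71, 12.10 and 12.05 on mutant arrays and 11.33, 10.72 and 12.15 on wild-type arrays. Its difference of 0.55 (SE 0.30, interval -0.11 to 1.21) had the smallest p of any member (limma, unadjusted p = 0.092, adjusted p = 1). Wild-type array 3 lay above every mutant array there, though not on the deposited scale or with equal array medians, where its groups did not overlap. Probe sets 1429372_at, 1453125_at and 1436790_a_at differed by 0.05 (SE 0.28), -0.14 (SE 0.33) and -0.21 (SE 0.46), so that 3 Sox11 probe sets were higher and 3 lower in mutant.

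Sox11 probe sets also differed in profile over the arrays. Probe set 1431225_at was lowest on wild-type array 3, at 0.37 below its own mean, while 1453002_at, 1429372_at, 1453125_at and 1436790_a_at were highest on that array, by 0.47, 0.62, 0.66 and 0.86. Of the 5 Ebf1 probe sets, 4 were lowest on wild-type array 2, whereas the brightest varied little. All 3 Ebf3 probe sets were lowest on wild-type array 2 and all 3 Ebf2 probe sets on mutant array 3. Over the 21 tested member probe sets wild-type array 2 was the lowest array for 9, and mutant array 1 for 0, while over all probe sets tested these arrays were lowest for 13.9% and 7.55%. Probe sets of a gene share their target, so these 9 are not independent. The position of these probe sets along their transcripts was not analysed here.

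**Figure D3:**
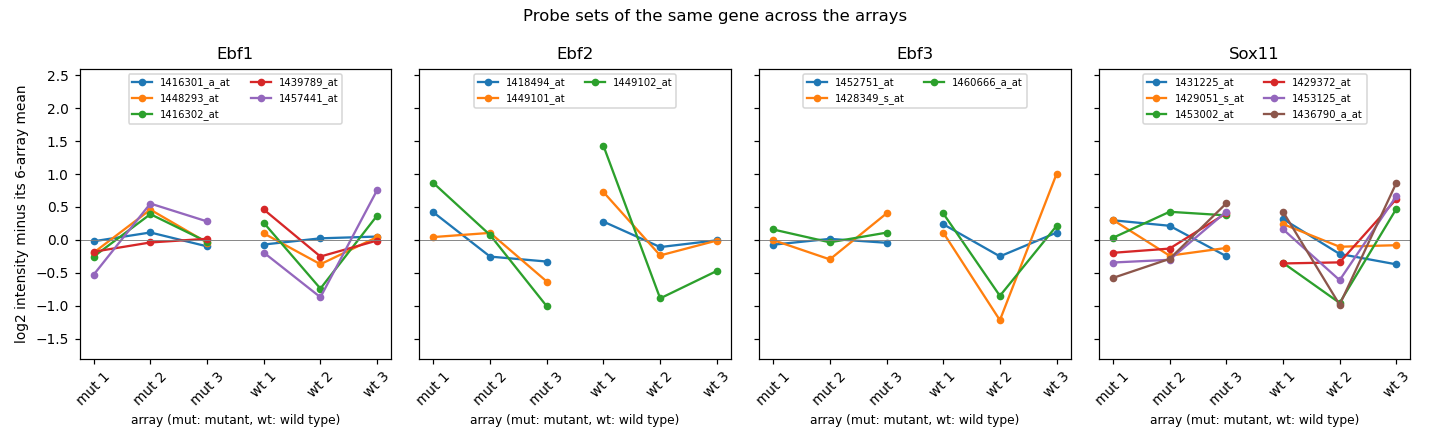
Log2 intensity minus the mean over the 6 arrays (vertical axis) for each probe set of Ebf1, Ebf2, Ebf3 and Sox11, with mutant arrays left and wild-type arrays right, and a line for each probe set. Wild-type array 2 is low for most Ebf1 and Ebf3 probe sets, and Sox11 probe set 1431225_at runs opposite to 1436790_a_at on wild-type array 3 (-0.37 and 0.86).

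Wild-type array 2 also stood out for tissue next to the epithelium. Squamous epithelium markers had a summed intensity of 1478, 207.8 and 1223 on mutant arrays 1, 2 and 3 and of 377.9, 4479 and 558.8 on wild-type arrays 1, 2 and 3. Bone and cartilage markers summed to 4224, 3081 and 3437 on the mutant and to 2194, 7065 and 3874 on the wild-type arrays. Dlx5 is also a gene of bone and cartilage precursors. Its level was highest on mutant array 3, and the summed bone and cartilage markers were highest on wild-type array 2. Of the 12 bone and cartilage genes listed, 9 had a probe set and 7 of these were bright enough to test. Ebf1 is likewise a gene of B lymphocytes, and the 7 B lymphocyte markers with a probe set summed to between 328.7 and 467.9 on mutant arrays and between 302.9 and 442.6 on wild-type arrays. Their part in the members' values was not tested. In bulk RNA, fewer cells of a type cannot be told apart from less RNA per cell.

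**Figure D4:**
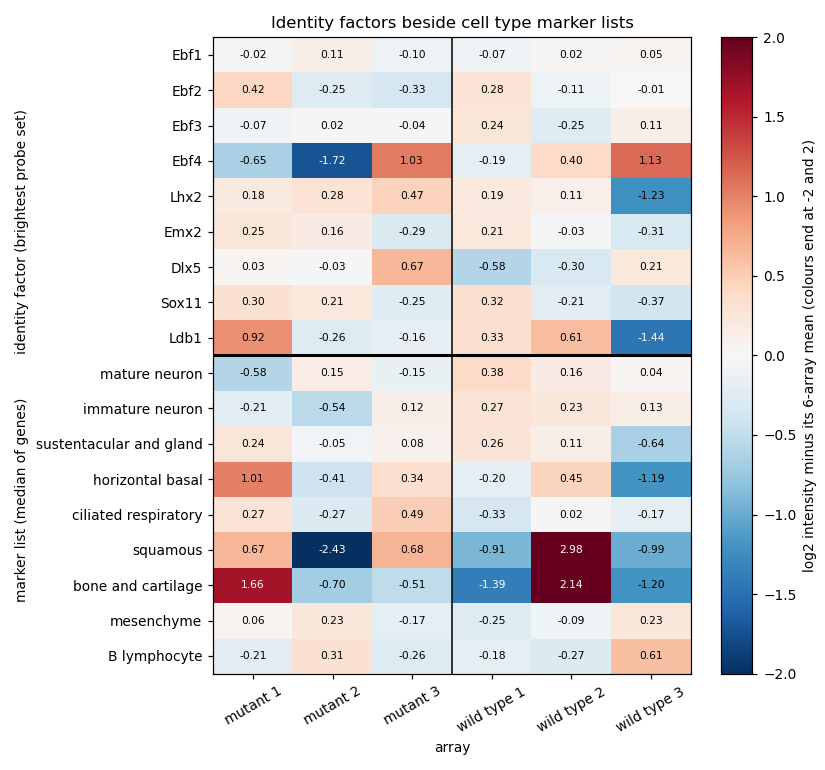
Log2 intensity minus its mean over the 6 arrays for the brightest probe set of each identity factor (upper rows) and for the median of each marker list (lower rows), mutant arrays left and wild-type arrays right, with colours ending at -2 and 2 and values printed in the cells. Lhx2 and Ldb1 are lowest on wild-type array 3 (-1.23 and -1.44), as are sustentacular and horizontal basal markers (-0.64 and -1.19), and squamous markers are highest on wild-type array 2 (2.98).

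The partners of these factors were taken next. Of 11 cofactors of LIM factors and EBF proteins, 9 were tested by their brightest probe set, with 2 lower and 7 higher in mutant and 0 at an unadjusted p under 0.05 (background over 12703 genes, 0.606%). Their median difference was 0.14, beside -0.02 over all genes. The cofactors with the smallest p were Lmo4, a LIM-only protein that competes for LDB1, with a difference of 0.42 (SE 0.52), Rlim, a ubiquitin ligase acting on LDB1, with 0.17 (SE 0.25), and Lmo2, with 0.23 (SE 0.35). Ssbp2, which stabilises LDB1 complexes, averaged 9.78 in mutant and 9.77 in wild type.

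Related homeobox and Sox genes were mostly dim. Of 19 paralogs of the members, 8 were tested, 1 lower and 7 higher in mutant with a median of 0.28, and 0 had an unadjusted p under 0.05. Isl1, a LIM homeodomain gene of many sensory neurons, was at 9.47, 9.93 and 9.95 on mutant arrays 1, 2 and 3 and at 9.41, 8.71 and 9.38 on wild-type arrays 1, 2 and 3. Its groups did not overlap, as for 2.86% of all genes, and the difference was 0.62 (SE 0.32, unadjusted p = 0.075 by limma, adjusted p = 1). The next by p were Dlx2, at 0.74 (SE 0.82) and with a floor value on wild-type array 3, and Isl2, at 0.37 (SE 0.53).

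Other transcription factors of the olfactory lineage lay on both sides of 0. Of 21 listed, 18 had a single-symbol probe set and 17 were tested, 10 lower and 7 higher in mutant, with a median of -0.04 and 0 at an unadjusted p under 0.05. Atf5, a leucine zipper factor through which odorant receptor expression promotes neuronal maturation, averaged 11.63 ± 0.06 in mutant and 11.96 ± 0.15 in wild type (SD, n = 3 each). Its groups did not overlap, as for 2.86% of all genes. Its difference was -0.33 (SE 0.16, unadjusted p = 0.070 by limma, adjusted p = 1). Neurod1, a basic helix-loop-helix factor of differentiating neurons, differed by 0.32 (SE 0.23), and Bcl11b, a zinc finger factor linked to odorant receptor choice, by 0.19 (SE 0.20).

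The promoters are shown because EBF proteins, whose own mRNA is described here, recognise a CCCNNGGG core. RefSeq promoter windows of GRCm38.p6, from 250 bases before to 50 after an annotated start, were found for 7 of the 9 members, 11 windows in all. Ebf2 and Dlx5 had none. The windows below are the 4 of members that hold this core and that of Cnga2, a gene with described EBF sites. Adcy3, another gene with described EBF sites, had windows without this core, which are not printed. No window of Omp or Gnal was read here. Capitals mark CCCNNGGG, CACCC (a core bound by Krüppel-like factors) and TAATTA (a core of LIM homeodomain sites), searched on both strands, with overlapping matches joined.
Cnga2, chrX:71991599-71991898, plus strand: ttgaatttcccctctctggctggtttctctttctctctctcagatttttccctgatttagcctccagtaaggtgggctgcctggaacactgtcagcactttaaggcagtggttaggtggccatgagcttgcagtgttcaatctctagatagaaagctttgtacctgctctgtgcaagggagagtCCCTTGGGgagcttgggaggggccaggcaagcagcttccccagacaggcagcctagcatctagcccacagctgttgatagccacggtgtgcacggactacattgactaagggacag
Ebf3, chr7:137314396-137314695, minus strand: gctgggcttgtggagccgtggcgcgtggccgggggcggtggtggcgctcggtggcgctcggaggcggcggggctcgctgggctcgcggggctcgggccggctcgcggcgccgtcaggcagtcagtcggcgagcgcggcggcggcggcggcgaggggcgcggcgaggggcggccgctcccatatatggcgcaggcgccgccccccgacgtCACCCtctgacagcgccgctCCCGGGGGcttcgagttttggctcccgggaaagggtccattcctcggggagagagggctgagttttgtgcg
Lhx2, chr2:38351058-38351357, plus strand: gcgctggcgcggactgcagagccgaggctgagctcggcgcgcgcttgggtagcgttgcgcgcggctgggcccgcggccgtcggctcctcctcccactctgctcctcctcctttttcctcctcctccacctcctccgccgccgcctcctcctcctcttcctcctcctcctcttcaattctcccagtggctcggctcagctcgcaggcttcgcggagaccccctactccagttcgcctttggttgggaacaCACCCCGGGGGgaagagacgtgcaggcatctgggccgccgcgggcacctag
Ldb1, chr19:46039572-46039871, minus strand: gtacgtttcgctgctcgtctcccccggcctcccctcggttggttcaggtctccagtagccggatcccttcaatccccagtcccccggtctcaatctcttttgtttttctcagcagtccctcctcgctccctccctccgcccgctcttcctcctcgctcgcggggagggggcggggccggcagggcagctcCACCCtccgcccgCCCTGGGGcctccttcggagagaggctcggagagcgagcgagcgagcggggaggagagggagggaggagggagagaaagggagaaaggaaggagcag
Sox11, chr12:27342669-27342968, minus strand: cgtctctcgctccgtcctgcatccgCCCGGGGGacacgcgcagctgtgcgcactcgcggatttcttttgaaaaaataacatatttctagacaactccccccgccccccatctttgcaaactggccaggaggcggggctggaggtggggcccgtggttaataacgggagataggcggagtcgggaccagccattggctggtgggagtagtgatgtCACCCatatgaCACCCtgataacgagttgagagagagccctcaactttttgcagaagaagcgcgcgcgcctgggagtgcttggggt
In Cnga2 the core began at position -66 from the start, in Ebf3 at -21, in Ldb1 at -47 and in Sox11 at -225, and in Lhx2 matches began at 1 and 2, overlapping a CACCC match at -1. Over all 32851 windows of this length 13.7% held CCCNNGGG, 57.5% CACCC and 5.29% TAATTA. Of the 11 member windows, 10 held CACCC and 1, that of Emx2, held TAATTA. The members' windows had a median GC content of 67.3%, against 52.7% for all windows. A match is a description of the sequence and not evidence of binding.

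Among 4 olfactory genes described as carrying EBF sites, Gnal and Cnga2 were lower on every mutant array than on any wild-type array, but neither passed the threshold. Gnal, the olfactory G protein subunit, was at 9.10, 9.48 and 9.48 on mutant arrays 1, 2 and 3, against 10.36, 10.21 and 10.24 on wild-type arrays 1, 2 and 3. The difference was -0.92 (SE 0.26, interval -1.49 to -0.35, adjusted p = 1 by limma). With the mean of all Gnal probe sets in place of the brightest it was -0.55. Cnga2, the cyclic nucleotide-gated channel subunit of olfactory cilia whose promoter is printed above, was at 7.09, 6.26 and 6.52 on the mutant and at 8.47, 7.37 and 8.26 on the wild-type arrays. The groups again lay apart, with a difference of -1.41 (SE 0.52, interval -2.55 to -0.27, adjusted p = 1). Omp differed by -0.36 (SE 0.49) and Adcy3, the adenylyl cyclase of the cascade, by 0.36 (SE 0.45), each with overlapping groups. Thus 2 of the 4 were lower at an unadjusted p under 0.05 by limma, beside 0.441% of all genes lower and 0.606% either way. These 4 also belong to the mature neuron markers, of which 10 of 12 tested were lower in mutant, with a median of -0.88. Of these 12, 7 had an unadjusted p under 0.05 by limma. For 7 every mutant array lay below every wild-type array, as for 248 of all 12703 genes tested. Gnal and Cnga2 are among the 7 in each case. The others do not belong to the 4, so such differences were not confined to these 4 genes. Whether the others carry EBF sites was not examined. That list summed to an intensity of 5059, 5396 and 6512 on mutant arrays 1, 2 and 3 and of 10440, 8332 and 9627 on wild-type arrays 1, 2 and 3. Immature neuron markers, tested for 12 genes, were lower for 9 and higher for 3, with a median of -0.28. Of these immature markers, 1 had an unadjusted p under 0.05 by limma. For 4 every mutant array lay below every wild-type array, beside the same 248 of 12703 genes. Lists of other epithelial cells went both ways. Higher in mutant were 9 of 10 sustentacular and gland markers (median 0.19) and 6 of 7 horizontal basal cell markers (median 0.36). The same held for 6 of 6 markers of ciliated respiratory cells (median 0.32). The summed intensities of each of these lists overlapped between groups. For sustentacular and gland markers only wild-type array 3, at 12770, lay below the mutant arrays, at 18910 to 20190. Horizontal basal markers summed to 6783, 3630 and 4762 on mutant arrays 1, 2 and 3. On wild-type arrays 1, 2 and 3 they summed to 3503, 6110 and 2174. Of the squamous epithelium markers, 6 of 7 were lower in mutant (median -0.49). Their summed intensity was highest on wild-type array 2, at 4479. Mutant arrays 1 and 3, at 1478 and 1223, exceeded wild-type arrays 1 and 3, at 377.9 and 558.8. None of these other epithelial lists held a gene at an unadjusted p under 0.05 by limma. Whether their differences exceed those of Ebf1, Ebf2 or Ebf3 was not tested, nor was the part of these marker lists in them.

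The genes whose array profile lay nearest to each member were found by the root mean square difference of log2 levels over the 6 arrays after centring each gene, among 11997 other genes. For Ebf1 (1416301_a_at) these were Ssbp2 and Fnbp1l, at 0.026 and 0.037, where the median gene lay at 0.49. For Ebf2 they were Cdk11b and Tenm4, at 0.056 and 0.057, and for Ebf3 Glyr1 and Spire1, at 0.048 and 0.062. The closest genes to Ebf4, Mvk and Apmap, lay at 0.26 and 0.27, where the median gene lay at 1.08. For Ebf4, 237 genes lay within 2 times the smaller distance. Lhx2 lay nearest to Atic and Polr1d, at 0.085 and 0.11, and Ldb1 to Dkk3 and Spns1, at 0.089 and 0.092. Emx2 lay nearest to Get1 and Cdyl2, each at 0.036, and Sox11 to Rnf4 and Tnrc6a, at 0.035 and 0.047. Dlx5 lay nearest to Dnah9, a dynein of motile cilia, at 0.077, and Rev3l, at 0.13. These distances are a description of 6 arrays and carry no test.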

How the data were processed

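The deposited values are linear intensities, 1 for each of 45037 probe sets on each array, and 5.39% of them were exactly 0. Per the labels, column-extracted RNA was amplified and labelled with biotin. The authors' summarising, background correction and scaling of these intensities are not stated in the labels or file. Symbols came from the platform annotation, and 34741 of the single-symbol probe sets were found by Entrez number in RefSeq of GRCm38.p6, with 0 symbols changed.

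Because array quartiles differed by 0.54 to 0.69 on the log2 scale, arrays were quantile normalized. Values were raised to the 20th percentile (12.56) and log2 was taken, which understates changes near the floor. Single-symbol probe sets with a mean below the 40th percentile (5.19) were left out, leaving 20967. Genotypes were tested in limma 3.58.1 under R 4.3.3 by lmFit and eBayes with a trend. P-values were two-sided and adjusted over every tested probe set (Benjamini-Hochberg, threshold 0.05), and exact permutation tests stood beside them. The script was tested on simulated data. Gene lists use the brightest single-symbol probe set of a gene. The number of arrays limits the precision.

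All members are named. Klf7, Omp, Gnal, Adcy3 and Cnga2 are also named by rule, with up to 3 genes of each further list by smallest p and the 2 nearest profiles per member. Members, lists and rules were chosen with earlier results of these data known. Arrays are numbered in the labels as biological replicates. Deviations from group means correlated at 0.49, 0.22 and 0.58 for arrays numbered 1, 2 and 3, and the unlike-numbered mutant array 1 and wild-type array 2 at 0.18. The 3 like-numbered values exceeded 0.1, so the blocked count is printed where it differs. The labels do not say what a number shares. All SEs, intervals and p-values given for genes come from the unpaired fit, and the replicate number as a block was an alternative. P-values measure the spread between pups. Alternatives changed the normalization, filter, floor, variance model, array weights, probe set rule, block and arrays used.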

Additional observations from a re-analysis of the deposited data

How the results depend on the processing

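Under every alternative run, 0 member probe sets, 0 of all probe sets and 0 Klf7 probe sets passed the threshold by limma, including with the replicate number as a block and without each array in turn. Probe sets at an unadjusted p under 0.05 by limma numbered 105 of 20967. Of the same 20967 they became 281 with the replicate block, 61 with equal array medians and 189 with array weights. They became 321, 204 and 185 without wild-type array 2, 3 or 1, and 177 without both arrays numbered 3. Without the dim filter they were 377 of a larger set of 34945. In the array-weight fit and without wild-type array 3 or both arrays numbered 3, Sox11 1453002_at was among them. Without mutant array 3 Ebf4 was. The replicate block changed no call, and gave Ebf4 an unadjusted p of 0.098 by limma. Among values under alternatives for the 9 factors and Klf7, 161 kept their direction and 19 changed it, all in factors whose differences were within their error. Ebf1 turned to 0.0127 with equal medians, 0.071 on the deposited scale, 0.0169 with array weights, 0.058 with the mean of probe sets and 0.0668 without both arrays numbered 3. Ebf3 turned to 0.0237 on the deposited scale and 0.0526 with the mean of probe sets, and Ldb1 to -0.15 without both arrays numbered 3. Without each array in turn, differences ranged from -0.0629 to 0.0441 for Ebf1, -0.34 to 0.0284 for Ebf2, -0.20 to 0.0342 for Ebf3, -1.65 to -0.26 for Ebf4, 0.16 to 0.86 for Lhx2, -0.0537 to 0.24 for Emx2, 0.23 to 0.68 for Dlx5, 0.04 to 0.38 for Sox11, -0.31 to 0.73 for Ldb1 and -2.60 to -1.66 for Klf7 by its brightest probe set, 1449439_at, whose difference over all arrays was -2.15. The cause was not tested. Dim probe sets, near the floor, limit what Ebf2 1449102_at and Ebf1 1457441_at can show.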
